A study of Zea mays with 6 samples.

Results

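The high-affinity nitrate transporters of the NRT2 family were described in the root tips of maize. A transcript was taken as a member when its KEGG Orthology annotation in the deposited table contained K02575, the entry for nitrate/nitrite transporters of the NNP family, and 6 of the 48312 transcripts met this rule. The family was chosen by the salt contrasts of read counts in these same libraries, led by GRMZM2G010251 and GRMZM2G010280. The salt values of these genes are therefore a description, and no p-value is given for any NRT2 transcript.

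Seedlings of the maize cultivar Chang 7-2 grew in Hoagland's nutrient solution. Primary roots (PR) were selected 3 days after germination, seminal roots (SR) at 7 days and crown roots (CR) at 15 days. Root type and plant age therefore cannot be told apart. Roots of each type then spent 24 h in this solution with either 0 mM NaCl, called untreated, or 100 mM NaCl. The treated libraries are named PR-salt, CR-salt and SR-salt. Each of the 6 libraries pooled tips of 1 cm from 10 to 15 roots, and there was 1 library per condition, so no value has a replicate error.

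NRT2 proteins sit in the plasma membrane and carry nitrate into root cells when nitrate outside is scarce, and most of those studied work together with a small partner protein, NAR2. Inside the cell nitrate reductase turns nitrate into nitrite, nitrite reductase turns nitrite into ammonium, and glutamine synthetase and glutamate synthase build ammonium into amino acids. In plants NRT2 genes of the root are known to be switched on by nitrate and held down by reduced nitrogen.

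The members differed in how closely they matched the family. The KEGG alignment score was 713 for GRMZM2G010251, 711 for GRMZM2G010280, 669 for GRMZM2G163866 and 635 for GRMZM2G455124. It was only 117 for GRMZM2G377555 and 96.3 for GRMZM2G124396, whose Gene Ontology term was carbohydrate metabolic process, so the label NRT2 rests on a weak match for these transcripts. GRMZM2G010251, GRMZM2G010280 and GRMZM2G163866 carried the terms inorganic anion transport and post-embryonic root development. In the RefSeq gene table GRMZM2G010251 is a synonym of the gene nrt2.2, and GRMZM2G010280 is a synonym of nrt2.1 and also of nrt2.2. These RefSeq genes are neighbours with 0 genes between them, and gene identifiers are used here because the names cross.

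The study designed a primer set on the transcript of GRMZM2G010251 for quantitative PCR. In that assay, which had biological replicates, the study reports the gene as lower in PR and higher in CR and SR after salt. The PCR values were not analysed here. The primers are shown because they are the designed sequences that define this transcript in an assay other than sequencing. They are written 5′ to 3′ with no base in capitals, and whether they tell GRMZM2G010251 from GRMZM2G010280 was not tested.
GRMZM2G010251 forward primer: ttcttcacctcctcaacctactccac
GRMZM2G010251 reverse primer: cttctcgtcgtcgttccactcg

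The libraries were of like depth, and 2.49 M to 2.66 M reads were counted on transcripts (median 2.55 M). Transcripts of the small chain of RuBisCO, a leaf enzyme, held 3 to 8 reads per library, and 9 transcripts of light-harvesting proteins held 69 to 239. Histone H4, a gene product of dividing cells, held 1151, 1221 and 1423 reads over 7 transcripts in untreated PR, CR and SR, and fewer after salt in each root type, with 966, 902 and 1077. Cyclin B, another marker of division, held 160 reads over 13 transcripts in PR, 206 in PR-salt and 237 to 285 in the CR and SR libraries, where it was lower with salt in both. The root hair gene rth3 held 57, 91 and 107 reads without salt and 55, 74 and 61 with it, for PR, CR and SR. No interval is given for these marker counts. The root initiation gene rtcs held 0 to 3 reads. The part of these cell types in the NRT2 values was not tested. In such bulk tips fewer cells of a type and less RNA per cell cannot be told apart.

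GRMZM2G010251 held 77, 100 and 50 reads in the untreated tips of PR, CR and SR, and 1, 228 and 259 reads after salt. As RPKM, the reads scaled to transcript length and library total, its level without salt was 19.1, 24.3 and 12.7 in these root types, and with salt it was 0.238, 57.2 and 64.7. The transcript was thus close to absent from the salt-treated primary root and at its highest in the salt-treated seminal root. In PR-salt 26.6% of all transcripts lay below it, compared with 79.4% in PR and 92.8% in SR-salt.

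GRMZM2G010280 held 73, 81 and 33 reads without salt in PR, CR and SR, and 9, 142 and 202 with salt. Its untreated RPKM was 18.1, 19.7 and 8.41, and its RPKM after salt was 2.15, 35.6 and 50.5. The levels of both genes followed the same order over the 6 libraries, with SR-salt highest, then CR-salt, CR, PR and SR, and PR-salt lowest. On the log2(RPKM + 1) scale r between the genes was 0.98 and rho was 1, a description over 6 libraries. Only uniquely aligned reads were counted, and whether reads of either gene were assigned to the other was not tested.

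GRMZM2G163866, the third transcript with a strong match, held 185, 242 and 248 reads in untreated PR, CR and SR, against 227, 312 and 302 in the treated tips. Its RPKM ran from 46.1 in PR to 78.5 in CR-salt, and per kilobase of whole transcript it had the highest RPKM of the family in every library, an order that turned in PR, CR-salt and SR-salt per kilobase of covered bases. It did not share the drop in PR-salt, where its RPKM was 54.3.

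The other members were near the limit of detection. GRMZM2G455124 held 7, 8 and 4 reads in PR, CR and SR and 1, 4 and 2 in their salt-treated counterparts. GRMZM2G124396 held 0 to 3 reads per library, and GRMZM2G377555 held 2 reads in PR and 0 in every other library. For a transcript as long as GRMZM2G010251, 3 reads, the floor taken here for a count of 0, correspond to an RPKM of 0.715 to 0.764. No salt difference was detectable in these 3 transcripts at this depth.

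**Figure D1:**
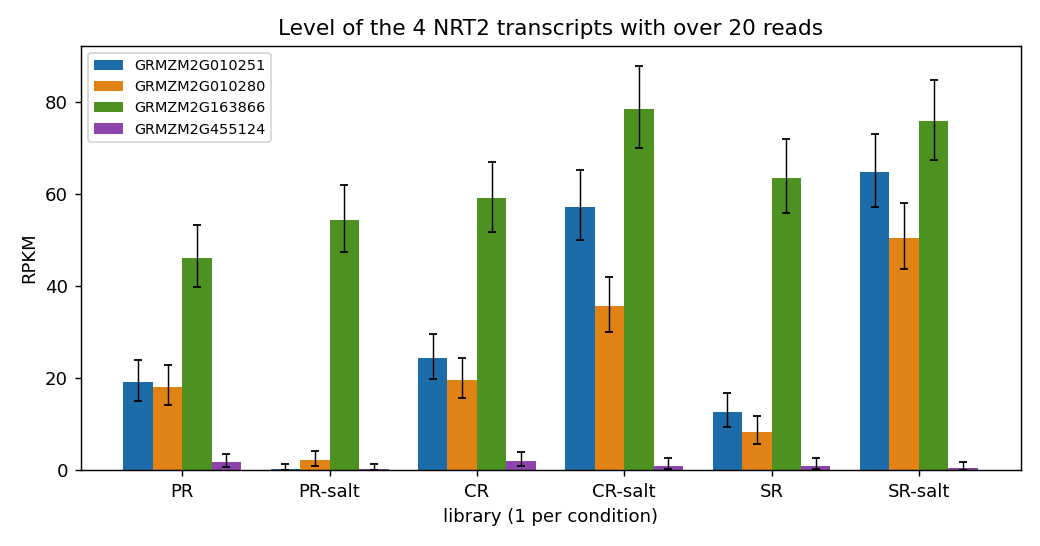
RPKM of 4 NRT2 transcripts (vertical axis) in the 6 libraries (horizontal axis), with bars from 0 and exact 95% intervals of the read count as error bars, which cover counting error only. GRMZM2G010251 and GRMZM2G010280 are lowest in PR-salt (0.238 and 2.15) and highest in SR-salt (64.7 and 50.5), while GRMZM2G163866 lies between 46.1 and 78.5 throughout.

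The salt contrast of each root type asks which transcripts differed in abundance between the treated and the untreated library. A transcript was called a differentially transcribed gene (DTG) at an FDR of at most 0.001 and a log2 RPKM ratio of at least 1 in size, by the test of Audic and Claverie on the reads of 2 libraries. Such a call compares libraries, not conditions, and each interval below covers counting error only.

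In PR-salt against PR, 2 NRT2 transcripts were called lower and 0 higher. Over all tested transcripts 0.487% were called lower and 0.0318% higher, a background from which nothing is read here because the salt contrasts chose the members. The log2 ratio of GRMZM2G010251 was -6.33 (95% interval -11.65 to -3.80), an 80.2-fold lower level that rests on 1 read in PR-salt. That of GRMZM2G010280 was -3.08 (-4.26 to -2.08), an 8.45-fold lower level. GRMZM2G163866 had a log2 ratio of 0.24 with an interval that included 0 (-0.05 to 0.52).

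In CR-salt against CR, GRMZM2G010251 was called higher with a log2 ratio of 1.23 (0.89 to 1.59), and GRMZM2G010280 was not called at 0.86 (0.45 to 1.27). The count was 1 higher and 0 lower, beside 0.135% higher and 0.234% lower over all tested transcripts. In SR-salt against SR both genes were called higher, with log2 ratios of 2.34 (1.90 to 2.81) for GRMZM2G010251 and 2.59 (2.05 to 3.16) for GRMZM2G010280. The count was 2 higher and 0 lower, beside 0.0814% higher and 0.311% lower over all. The ratio of GRMZM2G163866 was 0.41 (0.16 to 0.66) in CR and 0.26 (0.01 to 0.50) in SR, and neither was called.

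These calls differ in how much scatter between replicates they allow for. When a biological coefficient of variation of 0.2 was assumed in edgeR's exact test, the 2 calls in PR stayed at 2 lower, while the calls in CR and SR went to 0. No share of all transcripts called under this setting is given, and the salt contrasts chose these members. Nothing is therefore read from this difference between root types. With the reads of both genes summed, the untreated counts were 150, 181 and 83 for PR, CR and SR, and the treated counts were 10, 370 and 461. The summed log2 ratios were -3.97 (-5.05 to -3.05) in PR, 1.08 (0.82 to 1.34) in CR and 2.45 (2.11 to 2.80) in SR. The PR ratio of the sum, a 15.6-fold lower level, includes the low count of GRMZM2G010251, while GRMZM2G010280 alone was 8.45-fold lower. Both are a description, because the salt contrasts chose these genes.

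**Figure D2:**
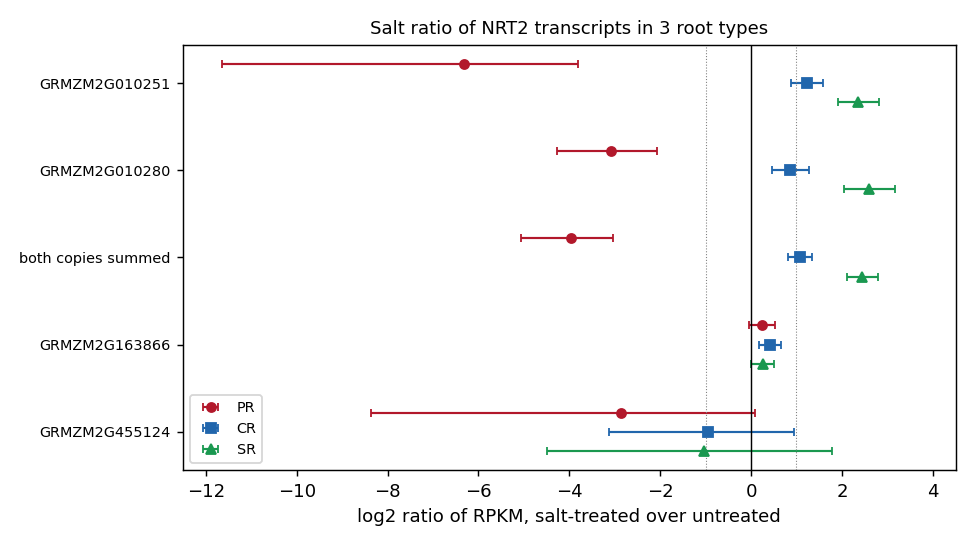
Log2 ratio of RPKM, salt-treated over untreated (horizontal axis), of 4 NRT2 transcripts and of the summed reads of GRMZM2G010251 and GRMZM2G010280 (vertical axis) in PR, CR and SR, with exact 95% intervals for counting error and dotted lines at the ratio threshold of 1. Both genes and their sum lie left of 0 in PR and right of 0 in CR and SR, and GRMZM2G163866 stays between 0.24 and 0.41.

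Shares of the family's reads are a description, because the salt contrasts chose the members. They use raw reads, and the covered part of the transcript differed between members, as given below. GRMZM2G010251 and GRMZM2G010280 together held 43.2% of all NRT2 reads in PR (exact 95% interval 37.9 to 48.6) and 4.18% in PR-salt (2.02 to 7.56). Their share was 42.0% in CR and 53.8% in CR-salt, and 24.6% in SR and 60.1% in SR-salt. In PR-salt nearly all NRT2 reads were therefore those of GRMZM2G163866, with 227 of 239. The reads of the 6 transcripts summed to 347, 431 and 337 without salt and to 239, 688 and 767 with salt, again for PR, CR and SR. The ratio of this sum was -0.60 (-0.84 to -0.35) in PR, 0.72 (0.54 to 0.90) in CR and 1.16 (0.97 to 1.35) in SR.

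Within the summed reads of the neighbouring genes, GRMZM2G010251 held 51.3%, 55.2% and 60.2% in untreated PR, CR and SR, and 61.6% and 56.2% in CR-salt and SR-salt. In PR-salt it held 1 of 10 reads, a share of 10% with an exact interval of 0.253 to 44.5%. The other intervals were 43.0 to 59.6% in PR, 47.7 to 62.6% in CR and 48.9 to 70.8% in SR. With salt they were 56.5 to 66.6% in CR and 51.5 to 60.8% in SR. Nothing is read from the place of the PR-salt interval beside these. The difference in share between PR and PR-salt has no test here because this contrast chose the members.

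The root types were then compared with each other. Without salt, 0 NRT2 transcripts were called in CR against PR, in SR against PR and in SR against CR, where 2.06%, 1.56% and 0.523% of all tested transcripts were called in either direction. The summed reads of GRMZM2G010251 and GRMZM2G010280 had a log2 ratio of 0.24 in CR against PR (-0.08 to 0.56). They were lower in SR, with log2 ratios of -0.82 (-1.22 to -0.42) against PR and -1.06 (-1.45 to -0.67) against CR. GRMZM2G163866 went the other way in SR against PR, with a log2 ratio of 0.46 (0.18 to 0.74).

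With salt, PR-salt stood far below CR-salt and SR-salt in GRMZM2G010251 and GRMZM2G010280. In CR-salt against PR-salt 2 NRT2 transcripts were called higher, beside 0.722% of all, and in SR-salt against PR-salt again 2, beside 0.773% of all. GRMZM2G010251 reached a log2 ratio of 7.91 (5.41 to 13.22) in CR-salt and 8.08 (5.59 to 13.39) in SR-salt against the 1 read of PR-salt. For GRMZM2G010280 these ratios were 4.05 (3.09 to 5.21) and 4.56 (3.60 to 5.71). For GRMZM2G163866 they were only 0.53 (0.28 to 0.78) and 0.48 (0.23 to 0.73), and it was not called. These contrasts share the PR-salt library, and they hold the same low counts as the salt contrast of PR. In SR-salt against CR-salt 0 were called, beside 0.436% of all in either direction.

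In the order of levels, neighbours could be told apart by counting error at some steps only. For GRMZM2G010251 the steps from SR-salt to CR-salt (log2 0.18, -0.08 to 0.44) and from CR to PR (0.35, -0.10 to 0.79) had intervals that included 0, and the other steps did not. For GRMZM2G010280 the step from CR to PR alone included 0 (0.12, -0.36 to 0.60). For GRMZM2G163866, whose order was CR-salt, SR-salt, SR, CR, PR-salt and PR, the step from SR-salt to SR alone excluded 0.

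The reads of the neighbouring genes covered only part of their transcripts. Over the libraries other than PR-salt, 43.37 to 51.17% of the bases of GRMZM2G010251 and 29.78 to 37.71% of those of GRMZM2G010280 were covered, whereas GRMZM2G163866 was covered at 97.83 to 99.36% in the 6 libraries. Coverage was not used to choose the members. In SR-salt, where GRMZM2G010251 held 259 reads, 11.5% of the 452 other transcripts of 1400 to 1800 bases with 150 to 350 reads were covered as little as it was, and 6.19% as little as GRMZM2G010280. The median coverage of those transcripts was 90.9%. Only uniquely aligned reads were counted, so reads from stretches that the genes share would not have been counted, and whether such stretches are the uncovered bases was not tested.

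This partial coverage bears on levels compared between genes. Per kilobase of transcript the RPKM of GRMZM2G010251 was 0.854 times that of GRMZM2G163866 in SR-salt and 0.728 times in CR-salt. Per kilobase of covered bases, a scale added after the coverage was seen, these ratios were 1.66 and 1.41, so that the order of these genes turned in both libraries. For GRMZM2G010251 in PR the ratio went from 0.415 to 0.805, in CR from 0.412 to 0.799 and in SR from 0.201 to 0.390, and its order was kept. For GRMZM2G010280 the ratio to GRMZM2G163866 passed 1 in PR (0.393 to 1.04), CR-salt (0.453 to 1.19) and SR-salt (0.666 to 1.76), but not in CR (0.333 to 0.879), SR (0.133 to 0.349) or PR-salt (0.0395 to 0.104).

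**Figure D3:**
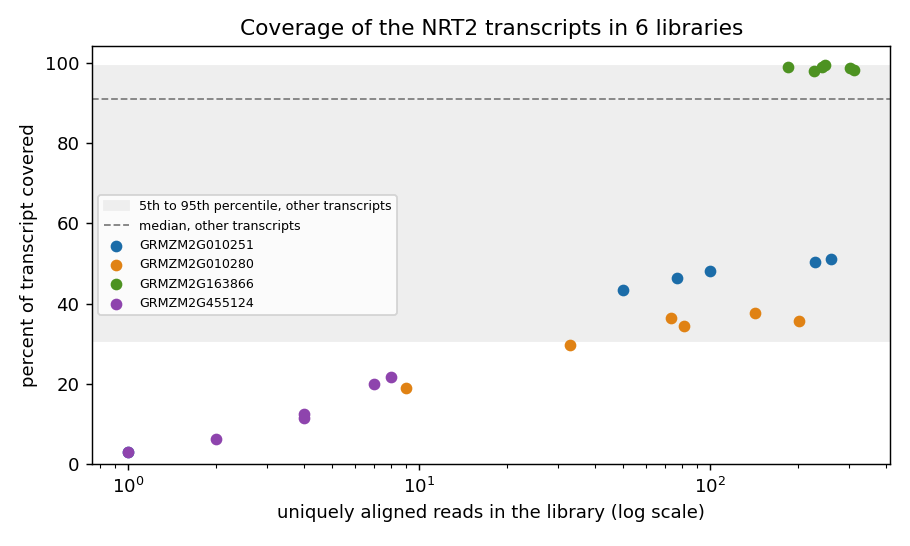
Percent of the transcript covered by reads (vertical axis) against reads in the library (horizontal axis, log scale) for 4 NRT2 transcripts, 1 point per library, with the median and the 5th to 95th percentile of other transcripts of 1400 to 1800 bases with 150 to 350 reads as dashed line and grey band (median of the libraries' medians, and lowest and highest percentile of any library). GRMZM2G010251 levels off near 51.17% and GRMZM2G010280 near 37.71%, while GRMZM2G163866 stays above 97.83%.

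The partner proteins of NRT2 were looked up after the table had been seen. GRMZM2G179294, listed as NAR2.1 in the RefSeq table, held 915, 1044 and 1298 reads in untreated PR, CR and SR, and 691, 1439 and 1480 after salt. Its RPKM of 424 to 952 was well above that of any NRT2 transcript. The log2 salt ratio was -0.46 (-0.61 to -0.32) in PR, 0.51 (0.39 to 0.62) in CR and 0.16 (0.05 to 0.27) in SR. The signs were those of GRMZM2G010251 and the ratios were smaller, and it was called in no salt contrast. Against PR-salt it was called higher in CR-salt (1.13) and SR-salt (1.17), beside the shares over all transcripts given above. Without salt it was higher in SR than in PR (0.54, 0.42 to 0.67), where the summed reads of GRMZM2G010251 and GRMZM2G010280 were lower. GRMZM2G163494, listed there as NAR2.2, held 15 reads in PR and 0 to 2 in each of the other libraries.

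Nitrate reductase, which takes the first step after uptake, was also added after the table had been seen, as the 4 transcripts with a strong match to its KEGG entry. None of them was called in a salt contrast. GRMZM2G568636 held 498, 832 and 675 reads without salt and 397, 1025 and 1049 with salt, for PR, CR and SR. GRMZM5G878558 held 504, 519 and 613 reads without and 343, 638 and 986 with salt. Both were lower in PR-salt than in PR, with log2 ratios of -0.39 and -0.61, and higher in CR-salt and SR-salt than in the untreated library, with ratios of 0.34 to 0.66. GRMZM2G076723 held 83 to 106 reads with intervals that included 0 in all 3 root types, and GRMZM2G428027 held 1 to 10.

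Other genes of nitrogen transport and assimilation were taken as a list of 125 transcripts by their KEGG entries. These covered nitrite reductase, glutamine synthetase, NADH-dependent glutamate synthase, asparagine synthase, ammonium transporters and the NRT1/PTR family. That family held 76 of the 125, under an entry named peptide/histidine transporter, so nitrate transport is not shown for each of them. A match of any rank or score was taken, and 90 of the 125 had a listed entry as first match with a score of at least 200. With those alone the numbers called below were the same, while the signs and medians below include the weaker matches. In PR 0 of the 111 tested transcripts were called in either direction. In CR 5 of 107 were called higher and 0 lower, and in SR 4 of 105 were called higher and 0 lower, where the shares over all transcripts are those given above. With an assumed biological coefficient of variation of 0.2 these counts went to 0 in CR and to 0 in SR, so each CR or SR call named from this list was lost under that setting. The share over all transcripts under that setting is not given here. Of the members with at least 20 reads in the 2 libraries, 19 of 56 lay above 0 and 37 below in PR, 31 of 53 above and 22 below in CR, and 30 of 56 above and 26 below in SR. Over all such transcripts 53.7%, 52.3% and 52.4% lay above 0. The list's median log2 ratio was -0.18 in PR, 0.05 in CR and 0.08 in SR, against 0.03, 0.02 and 0.03 over all. For its NRT1/PTR transcripts alone the median was -0.19 in PR, -0.08 in CR and -0.16 in SR. Of these, 13 of 38 lay above 0 in PR, 17 of 35 in CR and 15 of 35 in SR.

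Of the transporters on this list, the ammonium transporter GRMZM2G028736 held 161, 55 and 104 reads in untreated PR, CR and SR, whereas the treated tips held 110, 165 and 252. It was called higher in CR (log2 1.63, 1.18 to 2.10) and in SR (1.25, 0.91 to 1.59), and its ratio in PR was -0.61 (-0.97 to -0.25). GRMZM2G061303, of the NRT1/PTR family of nitrate and peptide transporters, held 21, 56 and 23 reads without and 32, 133 and 106 with salt, and was called higher in CR (1.29) and in SR (2.18). Its PR ratio of 0.55 had an interval from -0.29 to 1.42. A second family member, GRMZM2G055545, was called higher in SR, with 7 reads in SR and 64 in SR-salt, and held 48 reads in PR and 27 in PR-salt. The NRT1/PTR transcript with the most reads, GRMZM2G086496, held 655 to 1094 reads and was called in no root type, and the most-read ammonium transporter, GRMZM2G175140, held 132 to 194 and was not called either.

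Among the enzymes, the nitrite reductase with the most reads, GRMZM2G102959, held 709, 641 and 723 reads without salt and 436, 978 and 1165 with it, for PR, CR and SR. Its log2 ratio was -0.76 (-0.94 to -0.59) in PR, 0.65 (0.51 to 0.80) in CR and 0.66 (0.53 to 0.80) in SR, and it passed the ratio threshold in none. The asparagine synthase GRMZM2G053669, which makes an amino acid used to store and move nitrogen, held 1860, 842 and 677 reads without and 1274, 1969 and 1047 with salt, and was called higher in CR (1.27, 1.15 to 1.39). Another asparagine synthase, GRMZM2G078472, went from 76 to 252 reads in CR and was called there, with 10.8 to 13.6% of its transcript covered. The glutamate synthase GRMZM2G085078 was called in CR (49 to 146 reads) and SR (52 to 143), but its reads lay on 1.41 to 1.44% of the transcript, so that this call is uncertain. The glutamine synthetase GRMZM5G872068 held 1636 to 2230 reads, and its log2 ratio was -0.21 in PR and -0.01 in both CR and SR. The glutamate synthase GRMZM2G077054 held 1300 to 5190 reads with ratios of -0.12, 0.34 and 0.17.

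Opposite signs in PR and in the other root types were then counted over the table, as transcripts with an interval below 0 in PR and above 0 in the other root type, among those with at least 50 reads in each contrast. Over all transcripts 113 of 11726 (0.964%) had this pattern in PR and CR and 102 of 11841 (0.861%) in PR and SR. On the nitrogen list the counts were 5 of 34 (14.7%) and 7 of 38 (18.4%), and 2 of the 6 NRT2 transcripts had it in each, while 3 of the 6 reached the read minimum. This count was made after the values were seen and has no test. Over all transcripts 3 were called lower in PR and higher in CR or SR, namely GRMZM2G010251, GRMZM2G010280 and GRMZM2G001205, a gene that held 64 and 43 reads in untreated PR and SR and 15 and 97 reads in the treated tips. The reverse pattern was held by 2 transcripts.

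**Figure D4:**
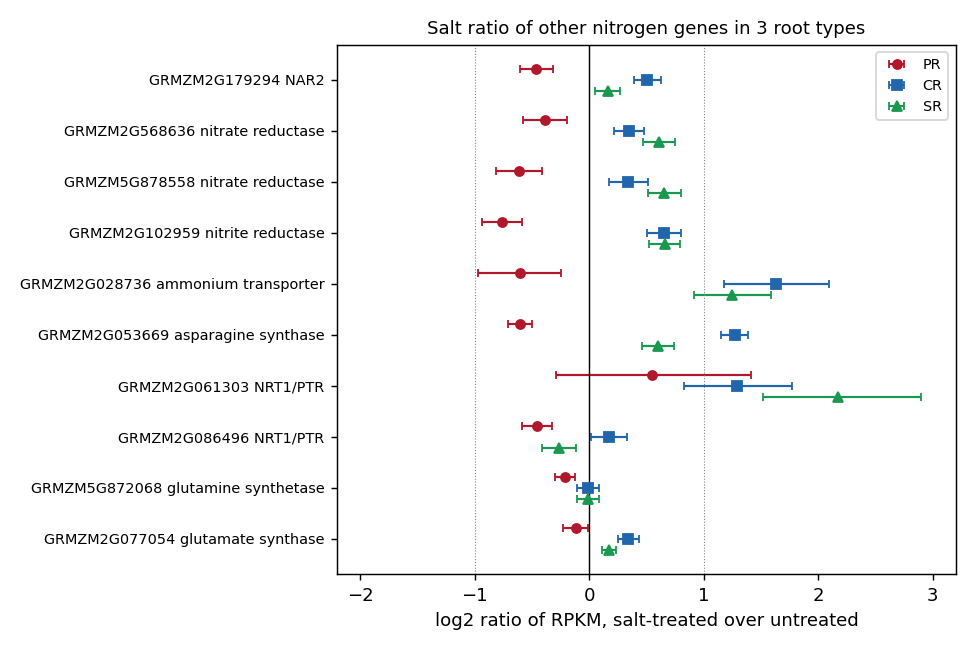
Log2 ratio of RPKM, salt-treated over untreated (horizontal axis), of 10 other genes of nitrate uptake and assimilation (vertical axis) in PR, CR and SR, with exact 95% intervals for counting error and dotted lines at the ratio threshold of 1. The nitrite reductase GRMZM2G102959 lies at -0.76 in PR, 0.65 in CR and 0.66 in SR, whereas the glutamine synthetase GRMZM5G872068 lies at -0.21, -0.01 and -0.01.

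The average salt effect over root types was fitted with edgeR's quasi-likelihood test, in which root type was a covariate and 2 residual degrees of freedom remained. Over all 18444 fitted transcripts 0.136% were called higher and 0.548% lower at an FDR of 0.05. Of the 3 NRT2 transcripts that could be fitted 0 were called, with average log2 changes of 0.74 for GRMZM2G010251, 0.65 for GRMZM2G010280 and 0.27 for GRMZM2G163866. Of 60 fitted transcripts of the nitrogen list 1 was called higher, GRMZM2G061303 with an average log2 change of 1.38 and an edgeR adjusted p of 0.029, and 0 were called lower. At an unadjusted p below 0.05 the list held 10 (16.7%), beside 12.4% of all fitted transcripts. The model assumes that root types respond alike, a shape that the NRT2 values above do not have.

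The transcripts whose level over the 6 libraries was most like the mean of GRMZM2G010251 and GRMZM2G010280 were sought among 921 transcripts with enough reads and range, by Pearson's r on the log2(RPKM + 1) scale. They were GRMZM2G092137 (r 0.94, rho 0.77), GRMZM2G153208 (0.93, 0.89), GRMZM2G072890 (0.93, 0.89), AC194056.3_FGT008 (0.93, 0.83) and GRMZM2G172491 (0.92, 0.89). Their log2 salt ratio was below 0 in PR, from -1.87 to -0.98. In CR it was -0.16 for GRMZM2G092137, -0.30 for GRMZM2G072890 and -0.42 for AC194056.3_FGT008, each with an interval that included 0, and 0.49 for GRMZM2G153208 and 1.33 for GRMZM2G172491. In SR it was 0.80 to 1.14. GRMZM2G172491, whose best KEGG match is a cytochrome P450 of benzoxazinoid synthesis, held 65, 65 and 50 reads in untreated PR, CR and SR, and 31, 158 and 112 after salt. For comparison, r with the same mean was 0.92 for the nitrite reductase GRMZM2G102959 (rho 0.77), 0.84 for NAR2.1 (rho 0.83) and 0.57 for GRMZM2G163866 (rho 0.66). These values describe 6 libraries, each scaled to its own read total for RPKM, and they carry no test.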

How the data were processed

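The authors aligned reads with SOAP 2.21 to the B73 RefGen genome, related them to transcripts with BLAST 2.2.23 and deposited 1 table of 48312 transcripts from 43006 genes. It gives the count of uniquely aligned reads, not normalized, the deposited RPKM and the percent of the transcript covered. The deposited RPKM was recomputed from counts, lengths and library totals, with differences of at most 1.74e-06. Members and lists were chosen with earlier results of these data known. Named genes were the 6 members, the nitrogen list's called and most-read transcripts, those called lower in PR and higher in CR or SR, and the 5 most alike. NAR2 and nitrate reductase were added after the table was seen.

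P-values of the Audic and Claverie test were adjusted by Benjamini-Hochberg over transcripts with at least 1 read, and an RPKM of 0 was set to 0.01. Intervals are exact (Clopper-Pearson, 95%), and without molecular identifiers they cover counting error only. edgeR 4.0.16 and DESeq2 1.42.0 ran in R 4.3.3, for transcripts that reached 10 reads in 3 or more libraries. Methods were tested on simulated data. Likeness used transcripts with at least 50 reads and a log2 range of at least 2. Names came from RefSeq's table of another assembly than the authors' build, and 2 of 6 members matched. Promoter and protein sequences were not used here. The labels mention biological replicates, and 1 library per condition was analysed.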

Additional observations from a re-analysis of the deposited data

Results flagged for a closer look

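Some salt log2 ratios had an interval below 0 in PR and above 0 in another root type. With 1 library per condition the difference between root types was not tested, and each difference below is the ratio of CR or SR minus that of PR. By this choice every listed difference is above 0, and none has an interval.

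For GRMZM2G010251 the difference was 7.56 in CR and 8.67 in SR, both resting on its 1 read in PR-salt. For GRMZM2G010280 it was 3.93 and 5.66. The salt contrasts chose these genes, so their differences are a description. For the partner gene GRMZM2G179294 it was 0.97 and 0.62. The nitrate reductases GRMZM2G568636 and GRMZM5G878558 differed by 0.73 and 0.96 in CR and by 0.99 and 1.27 in SR, and the nitrite reductase GRMZM2G102959 by 1.41 and 1.42.

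The ammonium transporter GRMZM2G028736 differed by 2.24 in CR and 1.86 in SR, and GRMZM2G175140 by 1.05 in SR. The asparagine synthase GRMZM2G053669 differed by 1.88 and 1.21, and the glutamate synthase GRMZM2G077054 by 0.46 and 0.29. In the NRT1/PTR family GRMZM2G055545 differed by 4.05 in SR and GRMZM2G086496 by 0.62 in CR.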

How the results depend on the processing

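Under the alternative settings 96 values were counted as the same and 23 as moved, among them the levels per covered kilobase. Call counts within 1.5 times were the same, and every alternative log2 ratio lay within the counting interval of its main value. In CR the ratio of GRMZM2G010280 went from 0.86 to 1.08 with both genes summed. That ratio passed the ratio threshold and still counted as the same. The 2 NRT2 calls in PR stayed at 2 under every alternative run. With a coefficient of variation of 0.2 assumed, which was run for the salt contrasts alone, the NRT2 count was 0 in CR (from 1) and 0 in SR (from 2), and the nitrogen list count was 0 in CR (from 5) and 0 in SR (from 4). At an FDR of 0.05 the nitrogen list count was 2 in PR (from 0) and 8 in CR, and the NRT2 count was 1 in SR against PR and 1 in SR against CR (both from 0). In SR against CR it was also 1 with DESeq2's size factors and 1 with at least 20 reads. The average salt effect called 0 transcripts of the nitrogen list with DESeq2 and 7 with no filter (5 higher, 2 lower), from 1. Shares over all transcripts under these settings are not given, so the counts cannot be set against a background. The cause of these changes was not tested.

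The log2 ratio of GRMZM2G010251 lay over 4 alternatives between -6.35 and -3.97 in PR, where -3.97 summed both genes, between 1.08 and 1.23 in CR, and between 2.31 and 2.45 in SR. That of GRMZM2G010280 lay between -3.97 and -2.95, 0.82 and 1.08, and 2.45 and 2.59. With 1 library per condition there were no replicates to pair, and the average salt fit compared libraries within root type. Depth limits the 3 NRT2 transcripts with at most 8 reads per library.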
